A study of Homo sapiens with 2 samples.

Results

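The interferon-stimulated genes examined here are 49 genes of the classical type I interferon response, among them the cytosolic RNA sensors, taken by name from a table of 37122 genes. All 49 had a row in the table, and membership was set by name, with earlier results of these data known. RNA-seq compared Ramos, a B-cell line from a human Burkitt's lymphoma (BL), with Ramos640, its derivative that resists killing by rituximab and complement. Rituximab is an antibody against CD20, and complement was supplied as normal human serum (NHS). Both lines grew in RPMI 1640 medium with fetal bovine serum, and resistance of the Ramos640 cells was kept up by exposure to rituximab with 20% NHS, repeated every 21 days. The sample labels give the concentration as 640 mg/mL, whereas the methods of the study give it in micrograms per millilitre. RNA from 3 passages of each line was pooled, so there was 1 library per cell line, and a response to selection and a subclone that grew out in culture cannot be told apart. No difference reported below has a replicate check, and no test between the cell lines was possible.

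Type I interferons bind a receptor of the subunits IFNAR1 and IFNAR2, whose kinases JAK1 and TYK2 phosphorylate STAT2. It joins IRF9 in a complex that binds the interferon-stimulated response element (ISRE) in the promoters of many antiviral genes. Cytosolic sensors such as RIG-I and MDA5 detect viral RNA and start interferon production through the adaptor MAVS, and they are themselves induced by interferon. Many B cells keep a basal expression of these genes without infection.

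The libraries held 38030090 reads (Ramos) and 30871826 reads (Ramos640). Reads were scaled by median-of-ratios size factors of 1.14 and 0.876, and log2 fold changes, Ramos640 over Ramos, were computed on normalized read counts plus 1. The intervals given are exact 95% Clopper-Pearson intervals, taken on the share of each gene's reads that came from Ramos640. They cover counting error only, and variation between libraries of the same line is not in them. Reads amplified by PCR are not independent molecules, so the counting error itself may be larger than the intervals show. A gene was called higher or lower in Ramos640 where the fold passed 1.5, the fold that the study used. The study also set a limit on the false discovery rate, which was not applied here. All 10 B-cell markers were read in both libraries, with 438 to 69495 reads in Ramos and 117 to 82890 in Ramos640. Of 8 T and NK cell markers, 2 had at least 10 reads in Ramos (CD4 and NKG7) and 2 in Ramos640 (CD4 and CD3E). CD4 had 11 and 19 reads, NKG7 had 13 and 3, and CD3E had 1 and 31 (log2 fold change 4.28, interval from 2.75 to 10.68). The 8 summed to 0.815 and 1.75 CPM (counts scaled to a common library total), with CD3D, CD2 and CD8A at 0 in both. The 7 monocyte and macrophage markers summed to 0.578 and 0.551 CPM with FCGR3A at 0 in both, and the 4 markers of plasmacytoid dendritic cells to 0.263 and 0.389 CPM with LILRA4 at 0 in both. The most read of these were S100A8 with 13 and 4 reads, CSF1R with 3 and 9, and IL3RA with 9 and 12. The 4 fibroblast markers were all read in Ramos and summed to 34.1 CPM there and 12.8 CPM in Ramos640, led by COL1A1 with 651 and 192 reads. The part of these transcripts in the results below was not tested.

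Of the 49 genes, 36 had at least 10 reads in the 2 libraries together, and 33 of these had at least 100. Among the 36, MX1, MX2, IFI30 and LGALS9 were higher by over 1.5-fold in Ramos640, and 11 were lower by over 1.5-fold, while 21 lay within 1.5-fold. The 15 genes past 1.5-fold in either direction are 41.7% of the 36, against 31.9% of all genes with at least 10 reads. These are bulk libraries, in which fewer cells expressing a gene and less of its RNA per cell cannot be told apart. The 4 higher genes are 11.1% of the 36, against 14.6% of all 18778 genes with at least 10 reads. The 11 lower genes are 30.6%, against 17.3% of all genes. Intervals lay above 0 for 10 of the 36 genes and below 0 for 15, where the shares over all genes were 29.6% and 31.6%. Restricted to the 33 genes read 100 times or more, the counts were 4 higher and 9 lower, beside 9.94% and 12.6% of all genes at that depth. The median log2 fold change of the 36 was -0.11 (quartiles -0.89 and 0.17), beside -0.015 (quartiles -0.40 and 0.34) over all genes. Over the 33 genes with at least 100 reads this median was 0.0090, so the centre of the list was near 0 and its direction depended on the least-read genes.

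**Figure D1:**
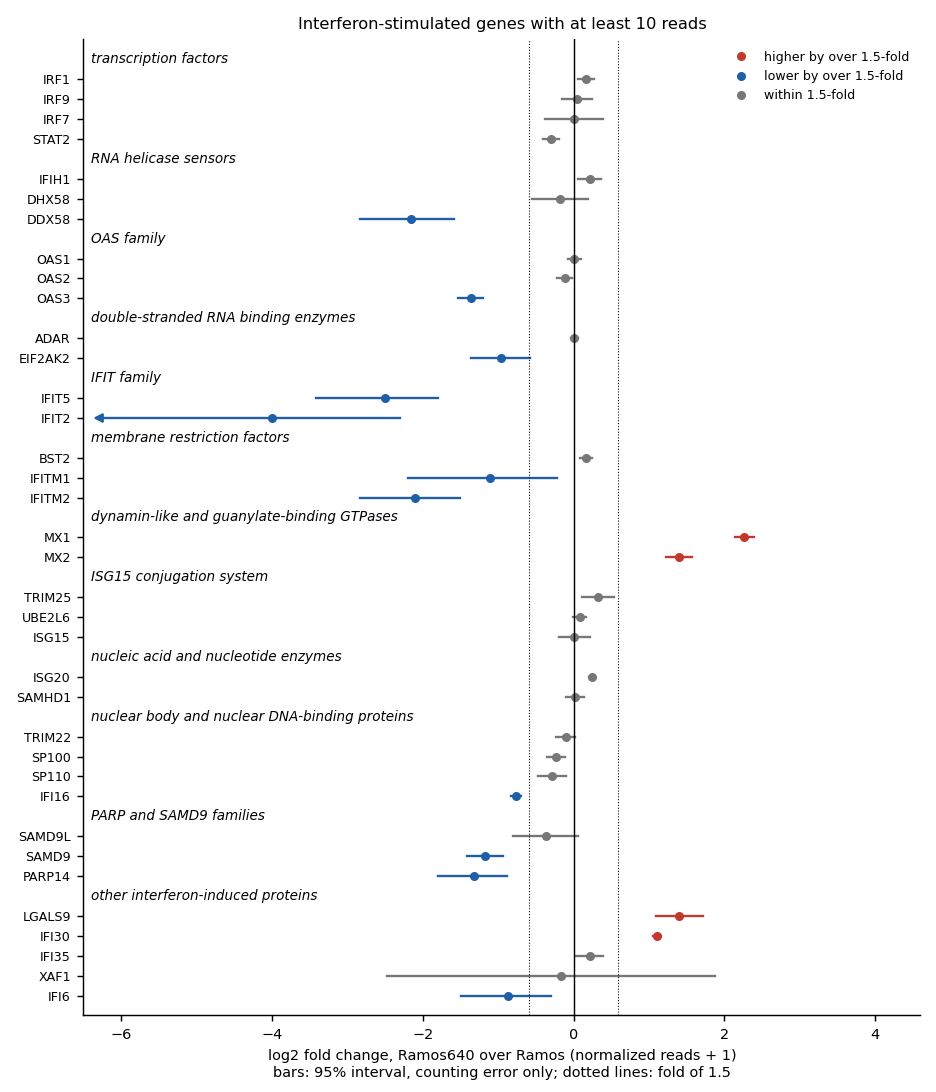
Log2 fold change (x axis, Ramos640 over Ramos) of the 36 interferon-stimulated genes with at least 10 reads, grouped by role; points are values and bars are 95% counting intervals, with an arrow where a bar runs past the axis. MX1, MX2, LGALS9 and IFI30 lie to the right of the 1.5-fold line and 11 genes to the left, with 1 or 2 lower members in 8 of the 12 groups.

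Levels per length were set side by side as reads scaled to kilobases of merged exons and to the library total (RPKM). The most abundant genes in Ramos were BST2 at 60.7 RPKM, IFI30 at 48.1, ISG20 at 43.7 and IFI16 at 33.0. In Ramos640 the order was IFI30 at 97.8 RPKM, BST2 at 64.3, ISG20 at 48.8 and UBE2L6 at 27.1, with IFI16 at 18.4. ISG20, ADAR, IFI16 and IFI30 together held 56.6% of the reads of the 49 genes in Ramos and 58.1% in Ramos640. At the other end, 13 of the 49 genes were read fewer than 10 times in all. OASL, RSAD2, IFI44L and GBP2 had none in either library, which allows up to 3 reads each, or 0.0789 CPM in Ramos and 0.0972 CPM in Ramos640. These 4 encode an oligoadenylate synthetase-like protein, the antiviral enzyme viperin, a protein induced strongly by interferon and a guanylate-binding protein. IFI27 had 2 and 0 reads in Ramos and Ramos640, and IFI44 had 1 and 0. HERC5 had 0 and 1 reads, USP18 had 1 and 4, and IFITM3 had 3 and 1. The remaining 4 were IFIT1, IFIT3, PARP9 and GBP1, described with their families. Several of the genes most often used to score an interferon response were thus at or near 0 in both libraries.

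**Figure D2:**
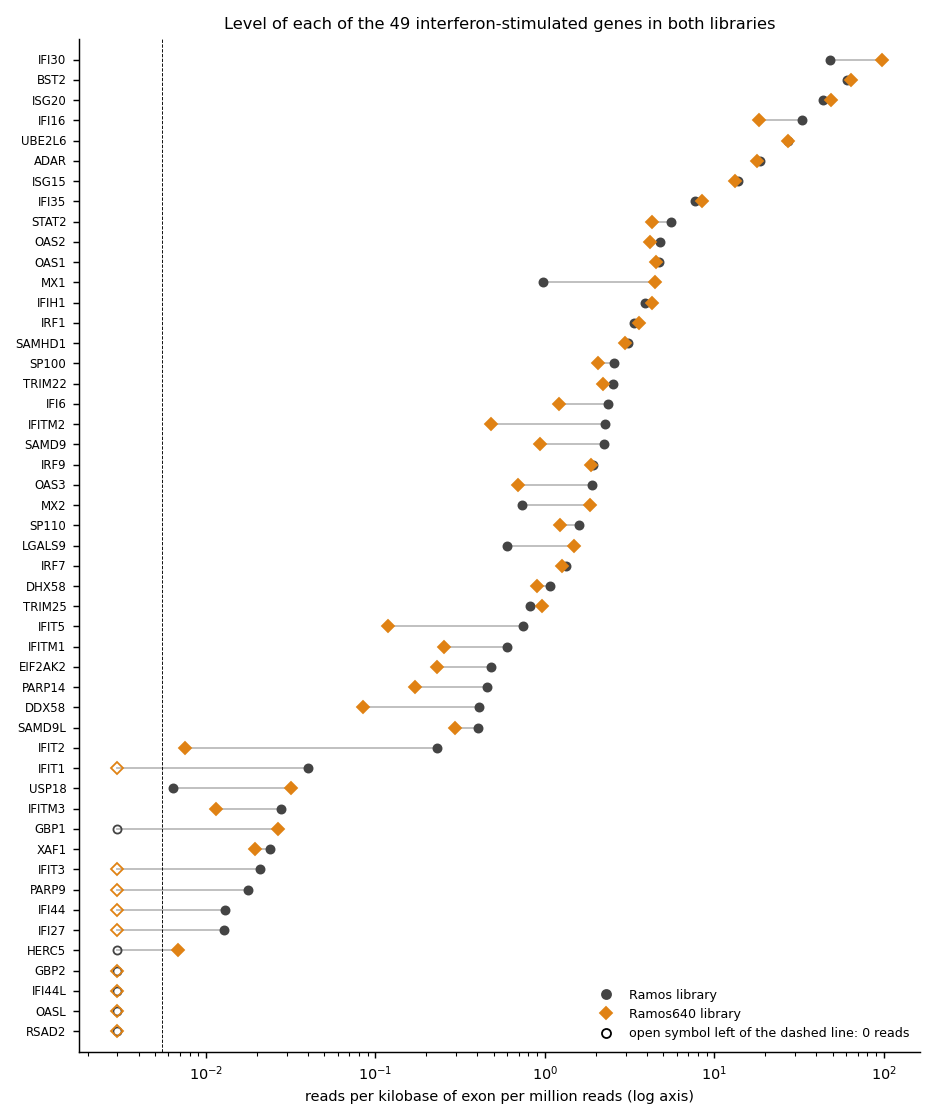
Level of each of the 49 genes in the Ramos library (circles) and the Ramos640 library (diamonds) in RPKM, on a log axis; open symbols left of the dashed line stand for 0 reads. The levels run from 97.8 for IFI30 in Ramos640 down to 0 in both libraries for OASL, RSAD2, IFI44L and GBP2.

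An exact run of ISRE letters was searched in the promoters of these genes. In the RefSeq promoter table (GRCh38.p14), which gives 250 bases before to 50 bases after each start, 39 of the 49 genes had an entry. IRF7, DHX58, OAS2, OASL, IFIT2, IFITM2, MX2, GBP2, USP18 and TRIM22 had none. The ISRE letters, GAAA followed by any 2 bases and GAAA again, were searched on both strands, overlapping matches counted separately. At least 1 window held them for 23 of the 39 genes (59.0%), beside 4.38% of the 27305 genes of the table. All 10 genes with fewer than 10 reads and an entry held these letters, as did 7 of the 9 lower genes, 2 of the 3 higher genes and 4 of the 17 genes within 1.5-fold. Counted the other way, the 13 genes with at least 10 reads and these letters had a median log2 fold change of -0.87, with 7 lower and 2 higher. The 16 genes without them had a median of 0.0093, with 2 lower and 1 higher. The median read count in Ramos was 456 for the former and 1325 for the latter, and the part of this difference in depth was not tested. Over the other genes with an entry and at least 10 reads, 19.7% of the 402 with the letters were lower and 10.9% higher, against 16.9% and 9.22% of the 9816 without. The gamma-activated site, TTCNNNGAA, reads the same on both strands and was found for 10 of the 39 genes (25.6%), beside 9.38% of all genes. In BST2, MX1, IFITM1 and IFI27 a match to it overlaps an ISRE match. A match is a run of letters and not a shown binding site. A gene without a match may still hold an ISRE. Inexact or differently spaced forms, and sites outside the windows, were not searched.

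The stretches below were chosen because they hold the same ISRE letters before genes that differed in direction. They run 5′ to 3′ along the strand of the gene, with the ISRE matches in capitals, and were placed on GRCh37 by exact match. IFIT5 (chr10:91174165-91174324, plus strand), OAS3 (chr12:113376119-113376278, plus strand), PARP14 (chr3:122399526-122399685, plus strand) and SAMD9 (chr7:92747293-92747452, minus strand) were lower in Ramos640. ISG15 (chr1:948717-948876, plus strand) and BST2 (chr19:17516440-17516599, minus strand) lay within 1.5-fold. Each of these stretches covers the 160 bases before the RefSeq start. For MX1, which was higher, the stretch covers 60 bases from 220 to 161 bases before the third start listed (chr21:42803757-42803816, plus strand).
IFIT5: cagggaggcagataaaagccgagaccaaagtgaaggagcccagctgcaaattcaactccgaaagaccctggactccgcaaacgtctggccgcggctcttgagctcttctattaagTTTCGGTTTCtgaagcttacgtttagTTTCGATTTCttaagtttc
OAS3: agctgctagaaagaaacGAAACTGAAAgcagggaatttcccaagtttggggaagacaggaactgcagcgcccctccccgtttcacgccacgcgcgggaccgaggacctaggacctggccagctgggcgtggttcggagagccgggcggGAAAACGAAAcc
PARP14: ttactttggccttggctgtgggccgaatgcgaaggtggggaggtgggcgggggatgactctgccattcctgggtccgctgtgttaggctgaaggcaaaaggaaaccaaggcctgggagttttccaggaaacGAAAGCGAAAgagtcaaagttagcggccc
SAMD9: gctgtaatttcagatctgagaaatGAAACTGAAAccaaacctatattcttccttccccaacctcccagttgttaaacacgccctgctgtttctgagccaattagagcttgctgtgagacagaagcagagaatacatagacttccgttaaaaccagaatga
ISG15: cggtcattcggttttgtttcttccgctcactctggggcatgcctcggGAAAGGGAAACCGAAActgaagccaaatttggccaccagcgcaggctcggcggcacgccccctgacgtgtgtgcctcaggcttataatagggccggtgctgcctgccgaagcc
BST2: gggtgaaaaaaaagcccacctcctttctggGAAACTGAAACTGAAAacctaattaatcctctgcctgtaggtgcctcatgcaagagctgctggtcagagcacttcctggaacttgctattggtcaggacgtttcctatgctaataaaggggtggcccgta
MX1: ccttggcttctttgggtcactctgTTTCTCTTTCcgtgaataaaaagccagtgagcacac
IFIT5 and OAS3 held 2 matches each in these 160 bases, and so did ISG15 and BST2, where the 2 matches overlap. The last match before the OAS3 start lay from 12 to 3 bases before it. IFIT5 held another match across its start, and the first MX1 window held GAAACCGAAA from base 12 to base 21 after the start.

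The transcription factors of the response differed little between the libraries. STAT2, a subunit of the complex that binds the ISRE, had 1971 Ramos reads and 1231 Ramos640 reads (log2 fold change -0.30, interval from -0.40 to -0.19). IRF9, which gives that complex its DNA-binding specificity, had 476 and 376 reads (0.041, interval from -0.16 to 0.24). IRF7, the factor that amplifies interferon alpha production, had 132 and 102 reads (0.0090, from -0.38 to 0.39). IRF1, a factor induced by interferon gamma as well, had 1569 and 1356 reads (0.17, from 0.065 to 0.28). None of the 4 passed 1.5-fold, and the intervals of IRF9 and IRF7 included 0.

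The 3 RNA helicase sensors did not move together. DDX58, which encodes RIG-I, the sensor of short and 5′-triphosphate RNA, lies at chr9:32455300-32526206 on GRCh37 and had 160 Ramos reads and 27 Ramos640 reads. Its log2 fold change was -2.15 (interval from -2.83 to -1.59), a level 4.44-fold lower. IFIH1, which encodes MDA5, the sensor of long double-stranded RNA, had 772 and 687 reads (0.21, interval from 0.062 to 0.36). DHX58, which encodes the regulatory helicase LGP2, had 156 and 106 reads (-0.18, from -0.55 to 0.19). The intervals of DDX58 and of the other helicases did not overlap. Per length, IFIH1 stood at 3.89 and 4.26 RPKM in the 2 libraries and DDX58 at 0.407 and 0.0845.

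The OAS genes encode synthetases of oligoadenylates, which activate the ribonuclease RNase L when double-stranded RNA is bound. OAS3, whose product binds long double-stranded RNA, lies at chr12:113375856-113414265 and had 1297 Ramos reads and 388 Ramos640 reads (log2 fold change -1.36, interval from -1.53 to -1.20). Its neighbours in the same cluster stayed within 1.5-fold. OAS1 had 2345 and 1812 reads (0.0091, from -0.080 to 0.098), and OAS2 had 2029 and 1438 (-0.12, from -0.21 to -0.017). OAS1 and OAS2 were thus at similar levels in both libraries, and OAS3 alone of the 3 expressed genes was lower by over 1.5-fold. The 17 protein-coding genes with at least 100 reads within 1 Mb of OAS3, interferon-stimulated genes left out, had a median log2 fold change of 0.31.

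EIF2AK2 encodes PKR, a kinase that halts translation on binding double-stranded RNA, and ADAR encodes an enzyme that edits such RNA and limits its sensing. EIF2AK2 had 201 Ramos reads and 79 Ramos640 reads (-0.96, interval from -1.36 to -0.58). It overlaps CCDC75 on the other strand, with 286 and 161 reads, and since the use of strand in the counting is not given, reads of the overlap cannot be told apart. The 10 protein-coding neighbours of EIF2AK2 with at least 100 reads within 1 Mb had a median log2 fold change of -0.37. They ranged from -1.97 to -0.24, and 2 were lower by over 1.5-fold. ADAR had 8709 and 6732 reads (0.0096, from -0.036 to 0.056).

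The IFIT genes encode proteins with tetratricopeptide repeats that bind viral RNA and lie in a cluster on chromosome 10. Both members with at least 10 reads, IFIT2 and IFIT5, were lower by over 1.5-fold in Ramos640. IFIT5 (chr10:91174325-91181362) had 123 Ramos reads and 16 Ramos640 reads, a log2 fold change of -2.50 (interval from -3.41 to -1.80). IFIT2 (chr10:91043451-91069028) had 38 reads and 1 read (-4.00, with an interval from -10.21 to -2.30). IFIT1 had 7 and 0 reads, and the end of its interval nearest to no change was 1.11-fold lower. IFIT3 had 4 and 0 reads, with an interval that included no change. IFIT1, IFIT2 and IFIT3 overlap LIPA on the other strand, with 1411 and 1146 reads (0.081). The 5 neighbouring protein-coding genes within 1 Mb that had at least 100 reads ranged from -0.37 to 0.67 with a median of 0.081. None of them was lower by over 1.5-fold, and 1 was higher.

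The membrane proteins that block virus entry or release were split. IFITM2, of the interferon-induced transmembrane family that restricts virus entry, had 138 Ramos reads and 24 Ramos640 reads (-2.10, interval from -2.83 to -1.51). IFITM1 had 38 and 13 reads (-1.11, from -2.20 to -0.23). IFITM1, IFITM2 and IFITM3 are neighbours of similar sequence on chromosome 11, so reads could have been split between them, and their values are uncertain one by one. BST2, which encodes tetherin, a protein that holds budding virus at the cell surface, had 2541 and 2184 reads (0.16, from 0.079 to 0.25). The BST2 value changed sign, to -0.043, when the trend over GC content described below was removed. BST2 was at 60.7 and 64.3 RPKM, while IFITM2 was at 2.26 and 0.484.

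MX1 had the highest log2 fold change of the 36 genes with at least 10 reads, and both MX genes were higher by over 1.5-fold. MX1 encodes a dynamin-like GTPase that blocks influenza and many other viruses, and MX2 its paralogue that restricts HIV. MX1 (chr21:42791947-42841998) had 668 Ramos reads and 2463 Ramos640 reads, a log2 fold change of 2.26 (interval from 2.14 to 2.39) or 4.80-fold. MX2 (chr21:42733926-42781320) had 407 and 826 reads (1.40, interval from 1.23 to 1.58), 2.64-fold. Per length MX1 moved from 0.977 to 4.44 RPKM and MX2 from 0.735 to 1.84 RPKM. FAM3B, the gene next to MX2, encodes a secreted cytokine-like protein and went the other way, with 142 and 24 reads (-2.14, from -2.87 to -1.55). The 6 protein-coding neighbours with at least 100 reads within 1 Mb of MX1 had a median of -0.41, and the 96 such genes of chromosome 21 a median of -0.032. Of the guanylate-binding genes, whose products attack the compartments of intracellular pathogens, GBP1 had 0 and 5 reads. The end of its interval nearest to no change was 1.19-fold higher in Ramos640, and GBP2 was not read.

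**Figure D3:**
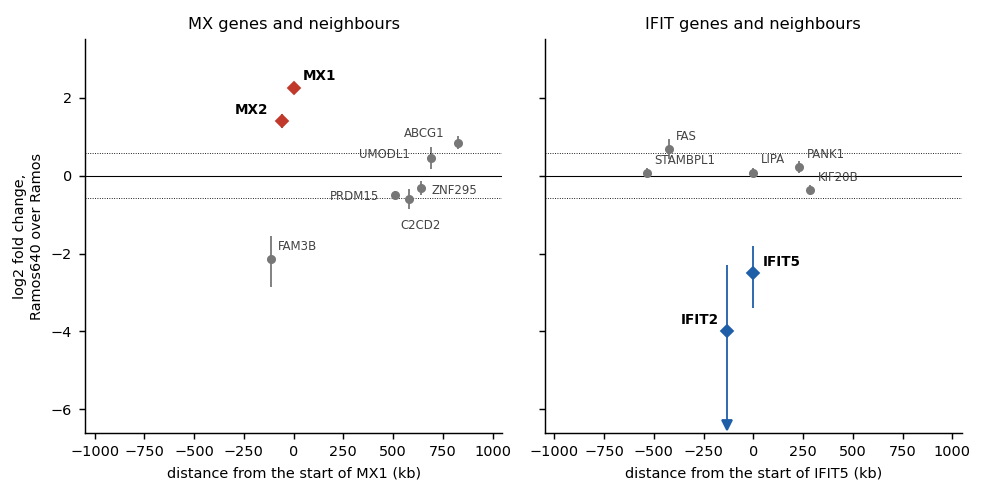
Log2 fold change (y axis, Ramos640 over Ramos) of the MX genes (left) and of IFIT2 and IFIT5 (right) as diamonds, and of protein-coding neighbours with at least 100 reads as circles, against distance in kb from the start of MX1 or IFIT5; bars are 95% counting intervals and dotted lines mark 1.5-fold. MX1 at 2.26 and MX2 at 1.40 stand above all 6 neighbours, and IFIT5 at -2.50 and IFIT2 at -4.00 stand below all 5 neighbours.

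The system that conjugates ISG15, a ubiquitin-like protein, to other proteins did not pass 1.5-fold in any member with at least 10 reads. ISG15 itself had 456 Ramos reads and 353 Ramos640 reads (0.012, interval from -0.19 to 0.22). UBE2L6, its conjugating enzyme, had 2127 and 1725 reads (0.079, from -0.014 to 0.17). TRIM25, a ligase that also activates RIG-I, had 385 and 370 reads (0.32, from 0.11 to 0.53). HERC5, the main ligase, and USP18, the protease that removes ISG15 and damps receptor signalling, were each read 5 times or fewer in all. ISG15 and UBE2L6 were thus at similar levels, with 13.8 and 13.2 RPKM for ISG15 and 27.1 RPKM in both libraries for UBE2L6, while HERC5 was near 0.

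The enzymes that act on nucleic acids or nucleotides also stayed within 1.5-fold. ISG20, an exonuclease, had the most reads of all 49 genes, 11937 in Ramos and 10812 in Ramos640 (0.24, interval from 0.20 to 0.28). SAMHD1, which depletes deoxynucleotides, had 1281 and 999 reads (0.022, from -0.098 to 0.14). Among the nuclear proteins, IFI16, a sensor of DNA, had 6639 Ramos reads and 3002 Ramos640 reads (-0.76, from -0.83 to -0.70). With the GC trend removed IFI16 was at -0.50 and no longer past 1.5-fold. Its 3 protein-coding neighbours with at least 100 reads within 1 Mb centred on -0.99, with 2 lower by over 1.5-fold. SP100 and SP110, proteins of nuclear bodies, had log2 fold changes of -0.24 and -0.29 with intervals below 0. TRIM22, a nuclear ligase that restricts virus transcription, had -0.11 (from -0.24 to 0.021). SP110 and TRIM22 overlap SP140 and TRIM5 on the other strand, and TRIM25 overlaps DGKE there, with 605 and 447 reads. On the same strand TRIM25 overlaps C17orf67 and SP100 overlaps HMGB1P3. The reads of SP110, TRIM22, TRIM25 and SP100 are uncertain for that reason.

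The 3 genes of the PARP and SAMD9 families with at least 10 reads all had log2 fold changes below 0, and 2 of them were lower by over 1.5-fold. PARP14, an ADP-ribosyltransferase, had 177 Ramos reads and 54 Ramos640 reads (-1.32, interval from -1.80 to -0.88). PARP9, its neighbour on chromosome 3, had 6 and 0 reads, with an interval that included no change. The 13 protein-coding neighbours of PARP14 within 1 Mb centred on -0.25, and 6 were lower by over 1.5-fold. SAMD9, an antiviral factor that restricts poxviruses, had 583 and 198 reads (-1.17, from -1.42 to -0.94). SAMD9L, its neighbour and paralogue on chromosome 7, had 123 and 73 reads (-0.37, from -0.81 to 0.058). The 11 protein-coding neighbours of SAMD9 with at least 100 reads within 1 Mb centred on -0.32. They ranged from -0.45 to 0.22, and none passed 1.5-fold.

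The remaining interferon-induced genes included the other 2 that were higher in Ramos640. IFI30 encodes GILT, a lysosomal thiol reductase that prepares antigens for MHC class II, and lies at chr19:18283972-18288927. It had 4285 Ramos reads and 7074 Ramos640 reads (1.10, interval from 1.05 to 1.16). LGALS9 encodes galectin-9, a lectin that binds surface glycans of lymphocytes, and had 129 and 262 reads (1.40, from 1.09 to 1.72). Its near-identical copies LGALS9B and LGALS9C had 0 and 0 reads and 0 and 2 reads, yet reads could still have been assigned among them. IFI6, a mitochondrial and endoplasmic reticulum protein that counters apoptosis, had 84 and 35 reads (-0.87, from -1.49 to -0.30). IFI35 had 572 and 509 reads (0.21, from 0.038 to 0.39), and XAF1, an antagonist of XIAP, had 6 and 4 reads (-0.17, from -2.47 to 1.87), too few to show a change.

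Upstream of these genes, 44 further genes of the pathway were examined. Of these, 29 had at least 10 reads, and 4 were higher and 4 lower by over 1.5-fold, beside 14.6% and 17.3% of all genes. No interferon alpha gene of the list (IFNA1, IFNA2, IFNA5, IFNA6 and IFNA8) had a read in either library, nor did IFNB1, IFNE, IFNK, IFNW1, IL28A or IL29. IL28B had 0 and 1 reads, and IFNG had 4 and 6 (0.80, interval from -1.11 to 3.23). All 6 receptor subunits were expressed and within 1.5-fold. IFNAR1 had 1160 and 853 reads (-0.062, from -0.19 to 0.066) and IFNAR2 had 2183 and 1529 (-0.13, from -0.23 to -0.038). The values of IFNGR1, IFNGR2, IL28RA and IL10RB were -0.17, -0.14, -0.20 and 0.066. Of the receptor kinases, JAK1 had 10799 and 7232 reads (-0.20) and TYK2 had 2702 and 2382 (0.20, or -0.0091 with the GC trend removed). JAK2, the kinase of the interferon gamma receptor, had 393 and 100 reads (-1.59, from -1.92 to -1.27).

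Between sensors and interferon genes, TRAF3, an adaptor of MAVS signalling, was higher with 42 and 208 reads (2.66, interval from 2.21 to 3.20). IKBKE, a kinase that phosphorylates IRF3 and IRF7, was higher as well with 3277 and 4206 reads (0.74, from 0.67 to 0.81). TBK1, the related kinase, was lower with 871 and 434 reads (-0.62, from -0.79 to -0.46). MAVS itself had 2648 and 2104 reads (0.049, from -0.034 to 0.13). TMEM173, which encodes STING, had 3 and 8 reads (1.48, from -0.26 to 4.35), and MB21D1, which encodes the DNA sensor cGAS, had 1 and 2, so the transcripts of cGAS and STING were near absent from both libraries. IRF2BP2, a corepressor of IRF2, was lower with 546 and 221 reads (-0.92). SOCS1, an inhibitor of JAK kinases, had 195 and 99 reads (-0.59, from -0.96 to -0.24), at the edge of 1.5-fold, and it overlaps RMI2 on the other strand, with 3432 and 1189 reads. SOCS3 and CISH had no reads. The 4 higher genes were thus TRAF3, IKBKE and, on 10 or 11 reads in all with intervals that included 0, IFNG and TMEM173. The other adaptors, inhibitors and regulatory factors lay within 1.5-fold, with TICAM1 at 0.58 and TANK at 0.57 nearest to it, IRF3 at 0.51 and IRF8, a factor of B-cell identity, at -0.33. IKBKE overlaps C1orf147 on the other strand. With the GC trend removed TBK1 was at -0.30 and IKBKE at 0.54, both inside 1.5-fold, while TANK was at 0.88 and past it.

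**Figure D4:**
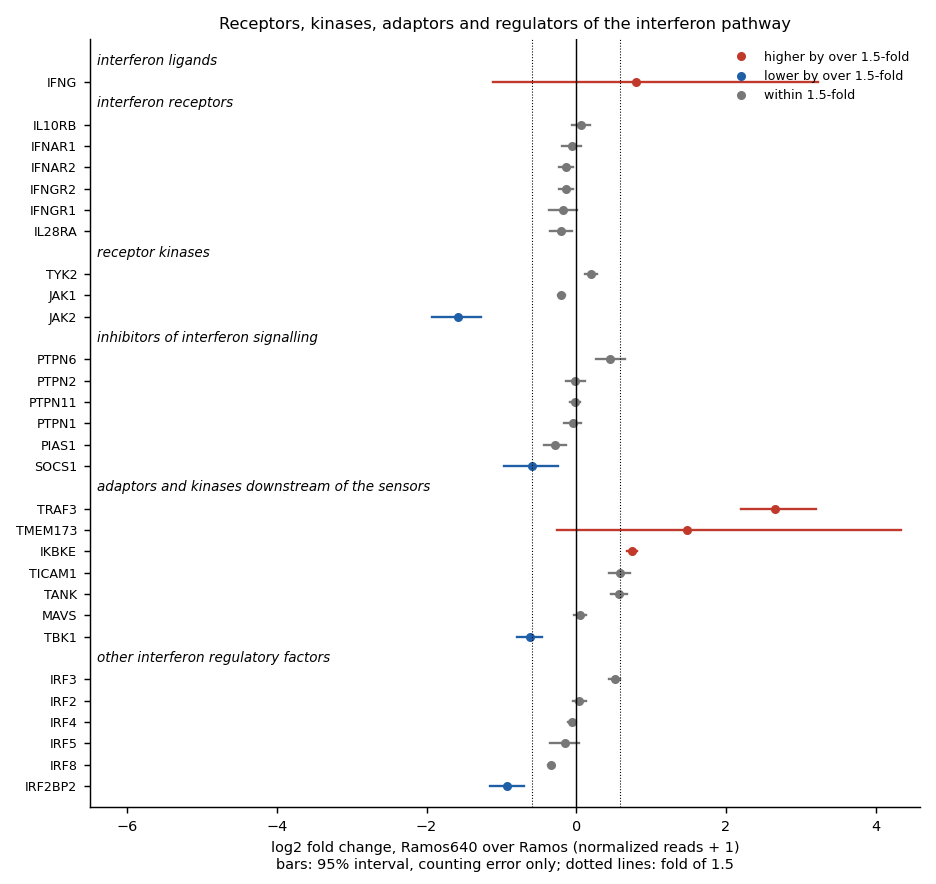
Log2 fold change (x axis, Ramos640 over Ramos) of the 29 further pathway genes with at least 10 reads, by role. Points are values and bars 95% counting intervals. All 6 receptor subunits lie inside the dotted 1.5-fold lines, JAK2 lies at -1.59 and TRAF3 at 2.66.

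The fold change over all genes rose with GC content. Over all genes with at least 100 reads and a known GC content, 17.8% of those under 45% GC were lower by over 1.5-fold and 3.57% higher, with a median log2 fold change of -0.22. Of the 14 interferon-stimulated genes in that range, 6 were lower (IFIT5, DDX58, SAMD9, IFI16, EIF2AK2 and PARP14) and MX1 was higher. From 45 to 55% GC, OAS3 was lower and MX2, LGALS9 and IFI30 were higher among 11 genes, where 8.78% of all genes were lower and 11.5% higher. Above 55% GC, IFITM2 and IFI6 were lower among 8 genes, and none was higher, where 8.32% of all genes were lower and 15.6% higher. With the trend removed, 4 genes were higher and 10 were lower, against 4 and 11 before, and the log2 fold change of MX1 was 2.43.

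**Figure D5:**
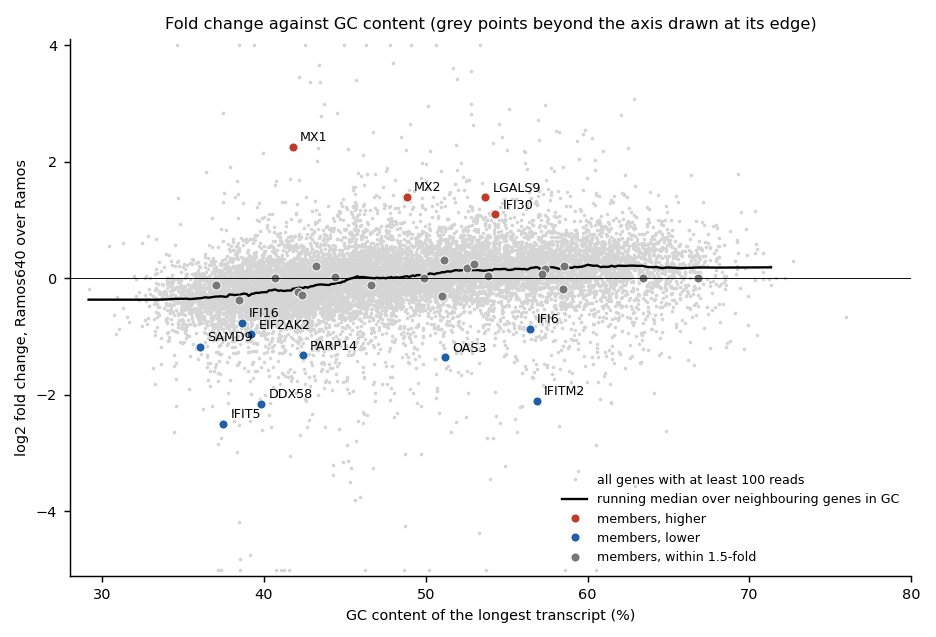
Log2 fold change (y axis, Ramos640 over Ramos) against GC content of the longest transcript (x axis, %) for all genes with at least 100 reads (grey), with the running median over genes of neighbouring GC content as a line and the 33 interferon-stimulated genes as coloured points. MX1 at 2.26 lies among genes whose running median is below 0, and OAS3 at -1.36 and IFITM2 at -2.10 lie where it is above 0.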

How the data were processed

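RNA of 3 passages was pooled per cell line, and 1 library each was made for Ramos and Ramos640. After adaptor removal the authors used MapSplice (version 2.1.6) for alignment to GRCh37 and deposited unnormalized read counts per gene. The counting program, its annotation, the treatment of reads that fit several genes and the use of strand are not given in the sources used here. Of the 37122 rows, 28 carry a number in place of a gene name and were kept unnamed. Size factors, fold changes and intervals were computed in Python 3.11.15 (SciPy 1.17.1), and TMM factors with edgeR 4.0.16. With 1 library per line no dispersion can be estimated, so no count model was fitted and no p-value is given. The scaling, fold calls and intervals were tested on simulated Poisson counts with a known set of changed genes. Such counts hold no variation between libraries and no GC trend, so that check does not cover them. Gene positions, exon lengths and GC content came from GENCODE release 44 on GRCh37, where all 49 genes and 84.2% of the genes with at least 10 reads matched, older symbols through RefSeq included. The GC trend was a running median over 501 genes, subtracted with the overall median added back. The genes and lists were chosen with earlier results of these data known. Genes with at least 100 reads and a fold past 1.5 are given in full, and the others by reads, fold or range. FAM3B, the promoter stretches and the neighbour windows were chosen after values were seen. One gene of the pathway is not reported here.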

Additional observations from a re-analysis of the deposited data

How the results depend on the processing

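The counts of higher and lower genes among the 49 were 4 and 11 under TMM factors, total counts and pseudocounts of 0.1 and 10. Counting every gene with at least 1 read gave 7 higher and 17 lower, with a median of -0.17, since genes with a few reads then count. With at least 100 reads the counts were 4 and 9 and the median changed sign, to 0.0090. Total counts moved the median to -0.19, and moved that of all genes by -0.080. Where the whole interval had to pass 1.5-fold, or the fold had to pass 2, the counts were 4 and 8. For all genes they were 1087 and 1381 by the first rule and 1246 and 1644 by the second, against 2733 and 3248. All genes with at least 1 read gave 4902 and 5547, and those with at least 100 reads gave 1359 and 1720. The further pathway genes had 2 higher with at least 100 reads, 2 higher and 2 lower by the whole interval, and 2 higher and 1 lower at a fold of 2. With the GC trend removed BST2 was at -0.043 and TYK2 at -0.0091, opposite in sign to their main values, and the cause was not tested. In all, 7 of the 36 genes changed sign under that setting, none of them past 1.5-fold, among them ISG15 at -0.22 and TRIM22 at 0.19, as did 6 of the 29 further pathway genes. Without TRIM25 and SP100, which overlap another gene on the same strand, and IFITM1, IFITM2 and IFITM3, the median was -0.049. IFITM3 had under 10 reads and was not among the 36. LGALS9, which has near-identical copies, was kept. No replicate could be left out. No paired analysis was possible because each cell line has 1 library. Genes under 10 reads are limited by depth.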

Other observations

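A list of 40 other interferon-stimulated genes was written after the values of the 49 were known, and 39 had a row under the name used. Of the 32 with at least 10 reads, none was higher by over 1.5-fold in Ramos640 and 9 were lower, beside 14.6% and 17.3% of all genes. DTX3L, the partner of PARP9 in a ubiquitin ligase complex that overlaps it on the other strand, had 20 reads in Ramos and 0 in Ramos640, and EPSTI1 had the same 2 counts. For both, the end of the counting interval nearest to no change was 3.79-fold lower. RTP4 had 70 and 13 reads (log2 fold change -1.98) and APOBEC3B, a cytidine deaminase, 1045 and 375 (-1.10). The others were TDRD7 (-0.96), TRIM34 (-0.71), ZC3HAV1, which encodes the antiviral protein ZAP (-0.65), SP140 (-0.62) and NMI (-0.59). CXCL10 and DDX60 had no reads in either library. With the GC trend removed 7 were lower, and with the whole interval past 1.5-fold 5 were lower.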
